A study of Mus musculus with 7 samples.

Results

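Fatty acid synthase (Fasn) and 9 other genes of de novo lipogenesis were followed in optic nerves at P14, in control mice and in mice that lack Fasn in the oligodendrocyte (OL) lineage. The genes were chosen by name for their place in the pathway, as 10 of the 22880 genes in the table, and all 10 passed the filter on low values that left 13866 genes for testing. They are Slc25a1, Acly, Acss2 and Me1, which supply carbon and reducing power, the acetyl-CoA carboxylases Acaca and Acacb, the carboxylase partners Mid1ip1 and Thrsp, the synthase Fasn itself, and the transcription factor Mlxipl. The 3 mutants carried olig2cre with FASN lox/lox, and the 4 controls are labelled FASN lox/lox, with no Cre. By these labels all mice of both groups were homozygous for the floxed allele, although the methods of the study also allow controls with 1 wild-type allele. All mice were of the C57Bl/6 background, to which the floxed line had been backcrossed, and the control or mutant number below is that of the labels. Cre was driven by the Olig2 promoter, which leaves Fasn intact in cells outside its reach, and mRNA of the whole nerve was sequenced from 1 mouse per sample, both nerves together. The exons that recombination removes are not given in the sources used here, and each value stands for the gene as a whole.

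In de novo lipogenesis, citrate leaves the mitochondrion and is split in the cytosol into acetyl-CoA, which the carboxylase turns into malonyl-CoA. Fatty acid synthase then joins acetyl-CoA and malonyl-CoA units, with NADPH as the reductant, into palmitate, which is elongated and desaturated further. Myelin is a membrane very rich in lipid, and OLs make large amounts of fatty acids and cholesterol while they build it.

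Levels are FPKM, the number of reads scaled for gene length and library size, and differences are mutant minus control on the scale of log2(FPKM + 0.5) with the standard error (SE) of limma. A difference passed when its p, adjusted by Benjamini-Hochberg over all 13866 genes, was under 0.05. Libraries held an estimated 27452222 to 43462575 reads, and the genes rested on 88 to 34615 reads per sample, with Mlxipl as the thinnest. The optic nerve markers were those of white matter, since the 10 markers of myelinating OLs summed to 59722 to 67519 FPKM in controls and 43520 to 56143 FPKM in mutants, without overlap, and 2 of them (Mag and Cnp) passed as lower. The 7 astrocyte markers summed to 3202 to 3612 FPKM in controls and 4025 to 4962 FPKM in mutants, also without overlap, and 3 of them (Aldoc, Gja1 and Slc1a2) passed as higher. The 6 markers listed for OL progenitors (OPCs) summed to 435 to 466 FPKM in controls and 306 to 374 FPKM in mutants. Of them, 3 (Cspg4, Gpr17 and Vcan) passed as lower, and Pdgfra (-0.14), Lhfpl3 (-0.26) and Ptprz1 (0.08) did not pass. Gpr17, which the study counts among transcripts enriched in myelin-forming OLs, was the most abundant of the 6. Its mean was 241 FPKM in controls and 164 FPKM in mutants. Mutant 1 had the highest sum of meningeal fibroblast markers, 4570 FPKM against 1799 to 2713 FPKM in the other samples, and mutant 2 had 78.3 FPKM of skeletal muscle markers against 2.95 to 6.50 FPKM. No marker of endothelial cells or microglia passed, although the endothelial sums did not overlap (98.6 to 119 FPKM in controls, 130 to 137 FPKM in mutants), and microglial sums did (179 to 206 and 204 to 241 FPKM). Neuronal and retinal markers summed to 19.9 to 35.5 FPKM over all samples. In such bulk tissue, fewer cells of a type and less RNA per cell cannot be told apart, and the part that these shifts play in the differences below was not tested.

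Of the 10 genes, 2 passed the test, Fasn as lower and Thrsp as higher in mutants, where 2.62% of all genes tested passed in either direction. The genotype itself targets Fasn, so its fall is the check of the labels. In 4 genes (Acaca, Acacb, Mid1ip1 and Thrsp) every mutant lay above every control, an arrangement found in 12.9% of all genes. Fasn alone had every mutant below every control, which 8.26% of all genes did. The 4 genes of acetyl-CoA and NADPH supply had differences from -0.36 to -0.04, none of which passed, and the carboxylases and their partners had differences from 0.25 to 0.45.

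**Figure D1:**
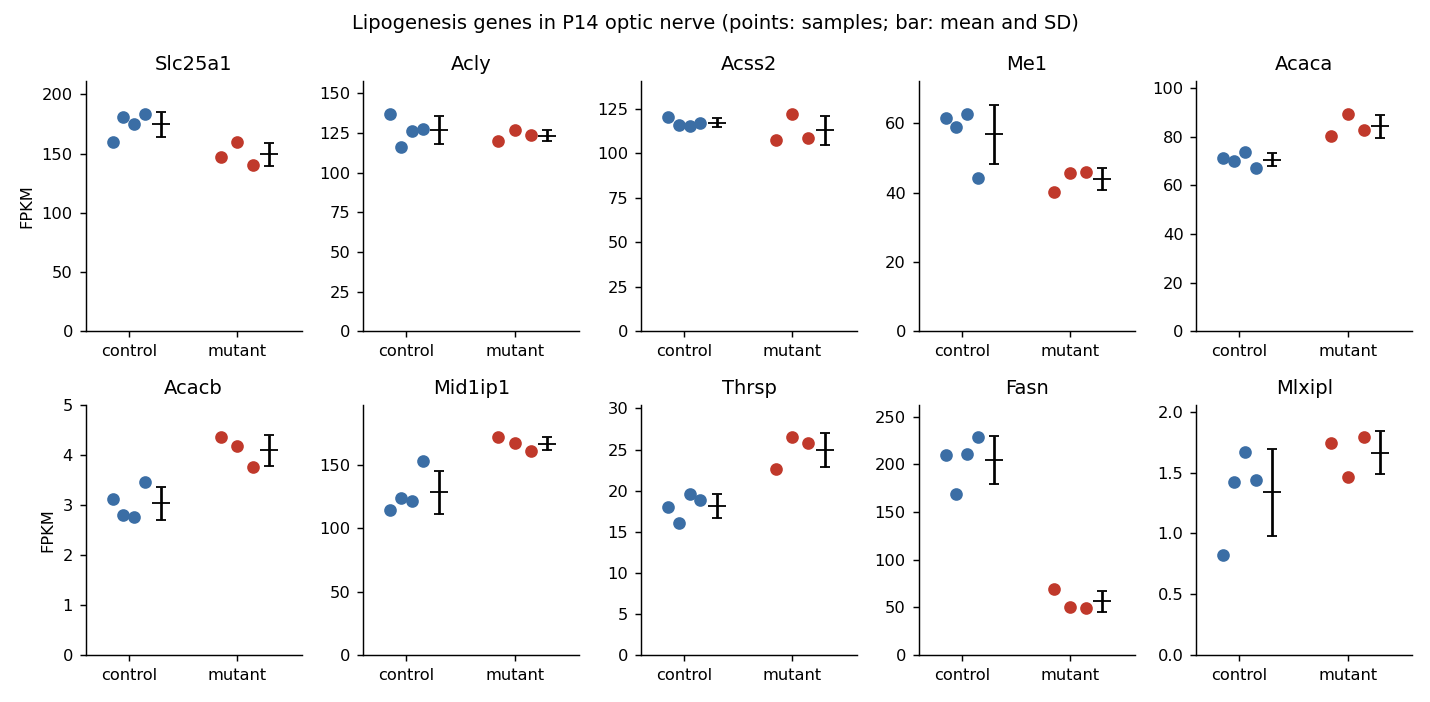
FPKM of each gene in the 4 control and 3 mutant samples (points), with the mean and SD beside them, on axes that start at 0. The mutant points lie below all control points for Fasn and above all of them for Acaca, Acacb, Mid1ip1 and Thrsp.

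The promoter windows of the 2 genes that passed, in opposite directions, are shown because both genes are textbook lipogenic targets with CCAAT boxes near their RefSeq start. The windows are those of RefSeq on GRCm38.p6, minus strand, from 250 bases before the start to 50 bases after it, read 5′ to 3′ with CCAAT or its reverse complement ATTGG in capitals. The Fasn window is chr11:120824498-120824797 and the Thrsp window is chr7:97417501-97417800.
Fasn: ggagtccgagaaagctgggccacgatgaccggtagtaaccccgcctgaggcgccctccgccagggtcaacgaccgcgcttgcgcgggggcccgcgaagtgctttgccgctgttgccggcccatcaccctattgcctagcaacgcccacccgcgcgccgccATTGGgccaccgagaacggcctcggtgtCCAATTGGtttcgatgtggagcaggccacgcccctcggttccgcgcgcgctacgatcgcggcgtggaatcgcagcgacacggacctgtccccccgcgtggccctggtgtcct
Thrsp: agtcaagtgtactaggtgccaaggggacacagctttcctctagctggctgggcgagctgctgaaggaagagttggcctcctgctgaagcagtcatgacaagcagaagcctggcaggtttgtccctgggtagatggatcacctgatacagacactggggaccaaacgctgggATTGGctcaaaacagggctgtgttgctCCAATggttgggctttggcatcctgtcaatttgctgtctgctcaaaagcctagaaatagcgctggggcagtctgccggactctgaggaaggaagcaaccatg

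In the Fasn window, CCAAT began 62 bases before the start, and ATTGG began 90 and 59 bases before it, the latter overlapping the CCAAT. In the Thrsp window, CCAAT began 52 bases before the start and ATTGG began 79 bases before it. All 10 genes matched the RefSeq table, with 12 windows in all. RefSeq starts can differ from those of the genes as counted. The Fasn window lay wholly before the start of its gene as counted, 120824178 on the minus strand. The Thrsp window spanned the start of its gene as counted, 97417730 on the minus strand. Its CCAAT and its ATTGG both lay after that start, inside the gene as counted. The Acaca, Acacb and Mid1ip1 windows began at 84195188, 114165268 and 10717115, inside genes that began at 84129672, 114146535 and 10715019. On either strand, CCAAT was present in 8 of the 12 windows, and in 37.4% of all 32851 promoter windows. These 8 belonged to 8 of the 10 genes, all but Acaca and Mid1ip1. Me1 and Mlxipl had 2 windows each, with CCAAT only in the one away from the start of the gene as counted. The E-box CACGTG, a motif of the factor families of SREBP and Mlxipl, was present in 2 of the 12 windows, of Slc25a1 and Mlxipl, and in 7.15% of all windows. GGGCGG, the core of GC boxes, was present in 6 of the 12 windows (of Acly, Acss2, Me1, Slc25a1, Mid1ip1 and Mlxipl) and in 35.7% of all windows. The looser E-box CANNTG, which includes CACGTG, was found in 8 of the 12 windows and in 72.3% of all windows. The 8 belonged to 7 genes, all but Acly, Acss2 and Mid1ip1. TCACNCCA, a form of the sterol regulatory element, was found in 1 of the 12 windows, of Mlxipl, and in 4.36% of all windows. These matches describe letters in short windows and nothing about the binding of a factor.

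Fasn is encoded on the minus strand of chromosome 11 (GRCm38, 120805940 to 120824178 in the table, ENSMUSG00000025153). Its FPKM was 210.3, 169.1, 211.1 and 228.3 in controls 1 to 4, and 69.3, 50.52 and 48.98 in mutants 1 to 3. The lowest control was thus 169.1 FPKM and the highest mutant 69.3 FPKM, and mutant 1 kept more Fasn than the other two. The mutant mean of 56.3 ± 11.3 FPKM (SD, n = 3) was 27.5% of the control mean of 205 ± 25.1 FPKM (SD, n = 4). On the log2 scale Fasn fell by 1.86 (SE 0.138, 95% interval -2.18 to -1.55, adjusted p = 0.00312, limma), the smallest p of all genes tested. Only 2 of the 13866 genes had a larger negative difference, Omp (-2.22, adjusted p = 0.0534) and Cyp2a5 (-1.87, adjusted p = 0.228), and neither passed. The remaining Fasn rested on 5074 to 9353 reads per mutant sample.

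Slc25a1 is the mitochondrial citrate carrier that exports citrate to the cytosol. Its FPKM was 159.8, 180.7, 175.4 and 183.8 in controls 1 to 4 and 147.1, 160.2 and 140.6 in mutants 1 to 3. Control 1 lay among the mutants, so the groups overlapped, and the difference of -0.23 (SE 0.072, adjusted p = 0.108, limma) did not pass. The interval ran from -0.39 to -0.06.

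Acly, ATP citrate lyase, splits the exported citrate into acetyl-CoA and oxaloacetate. Its FPKM was 137.2, 115.9, 126.5 and 127.7 in controls and 119.8, 126.8 and 123.5 in mutants, in number order, and all mutants lay within the control range. The difference was -0.04 (95% interval -0.19 to 0.11, adjusted p = 0.769, limma). Acss2, cytosolic acetyl-CoA synthetase, makes acetyl-CoA from acetate instead. It had 120.8, 115.9, 115.6 and 117.3 FPKM in controls and 107.8, 122.4 and 108.7 FPKM in mutants, with mutant 2 above all controls and the other two below them. Its difference was -0.06 (95% interval -0.20 to 0.08, adjusted p = 0.604, limma), and it was -0.12 without mutant 2 and -0.03 without mutant 1 or mutant 3. For both genes the intervals of this fit, with all samples, exclude changes as large as the point value of Slc25a1, whose own interval overlaps them. With upper-quartile scaling of the libraries the differences were -0.10 (SE 0.0726) for Acly, -0.12 (SE 0.0770) for Acss2 and -0.29 for Slc25a1. A difference between these genes was not tested. Acss2 overlaps Gss and Ggt7 on the other strand, at 42.2 to 63.0 FPKM and 40.9 to 51.6 FPKM over the samples, and whether the counting used strand is not given in the sources used here.

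Me1, cytosolic malic enzyme, returns oxaloacetate-derived malate to pyruvate and yields NADPH for the synthase. Its FPKM was 61.44, 58.95, 62.82 and 44.26 in controls 1 to 4 and 40.34, 45.74 and 45.95 in mutants 1 to 3. Control 4 was the lowest control and lay among the mutants. The difference was -0.36 (SE 0.120, adjusted p = 0.126, limma) and did not pass. Without control 4, which has no mutant of the same number, it was -0.47 and passed (adjusted p = 0.0422). With the replicate number as a block, where control 4 has no partner and adds nothing to the difference, it was -0.47 as well (adjusted p = 0.0251).

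Acaca, acetyl-CoA carboxylase 1, makes the cytosolic malonyl-CoA that the synthase consumes. Its FPKM was 71.07, 70.03, 73.74 and 67.19 in controls and 80.34, 89.49 and 82.92 in mutants, in number order. The groups did not overlap, with a gap from 73.74 to 80.34 FPKM, but the difference of 0.25 (SE 0.0611, 95% interval 0.12 to 0.39, adjusted p = 0.0625, limma) did not pass. Acacb, acetyl-CoA carboxylase 2, sits at the mitochondrial surface, where its malonyl-CoA restrains the entry of fatty acids for oxidation. It was far lower, at 3.117, 2.797, 2.751 and 3.463 FPKM in controls and 4.352, 4.173 and 3.753 FPKM in mutants, again without overlap. Its difference was 0.38 (SE 0.109, adjusted p = 0.0904, limma) and did not pass. Within a sample, Acaca FPKM was 19.4 to 26.8 times that of Acacb in controls and 18.5 to 22.1 times in mutants, ranges that overlap. The ratio of Acaca to Fasn was 0.294 to 0.414 in controls and 1.16 to 1.77 in mutants. The size of such ratios depends on the gene lengths used. With the longest coding transcripts, described below, control means were 25.2 FPKM for Acaca and 1.73 FPKM for Acacb.

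Thrsp (Spot 14) and Mid1ip1 (its relative, also called MIG12) are small related proteins that bind each other, and Mid1ip1 promotes the assembly of the carboxylase into active polymers. Thrsp had 18, 16.11, 19.6 and 18.81 FPKM in controls 1 to 4 and 22.63, 26.48 and 25.84 FPKM in mutants 1 to 3. The highest control, 19.6 FPKM, was below the lowest mutant, 22.63 FPKM, and the mutant mean was 138% of the control mean. Thrsp rose by 0.45 (SE 0.0872, 95% interval 0.25 to 0.65, adjusted p = 0.0388, limma). This call was near the threshold. It was lost when any of the 4 controls or mutant 3 was left out, with adjusted p from 0.0676 to 0.111 and differences from 0.40 to 0.49. It was also lost with other scalings of the libraries, which gave 0.41 (adjusted p = 0.0549) and 0.39 (adjusted p = 0.0598), with no filter on low values (adjusted p = 0.0789) and without a variance trend (adjusted p = 0.0660).

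Mid1ip1 had 114.4, 124, 122 and 153.2 FPKM in controls 1 to 4 and 171.9, 167.7 and 161.2 FPKM in mutants 1 to 3. Control 4 was again the control nearest to the mutants, and the groups did not overlap. The difference of 0.39 (SE 0.0958, 95% interval 0.17 to 0.60, adjusted p = 0.0675, limma) did not pass. Without control 4 it was 0.47 and passed (adjusted p = 0.0372), and with the replicate number as a block, where control 4 again adds nothing, it was 0.47 (adjusted p = 0.0251). With any other sample left out it was 0.33 to 0.41 and did not pass (adjusted p = 0.0768 to 0.168). Mid1ip1 lies on chromosome X, and the labels give no sex. The Y-linked gene Eif2s3y was at 37.3 to 38.2 FPKM in controls 3 and 4 and mutant 3 and at 0 to 0.0492 FPKM in the other samples, so both genotypes held samples of either kind.

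Mlxipl (ChREBP) is a carbohydrate-responsive transcription factor that drives lipogenic genes in liver and fat. It was the lowest of the 10, at 0.824, 1.418, 1.667 and 1.436 FPKM in controls and 1.74, 1.459 and 1.789 FPKM in mutants, from 88 to 179 reads per sample. The groups overlapped, since mutant 2 lay below control 3. The difference was 0.26 (95% interval -0.14 to 0.66, adjusted p = 0.400, limma), an interval that includes both no change and the value of Thrsp. Without control 1, the lowest sample, the difference was 0.11.

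**Figure D2:**
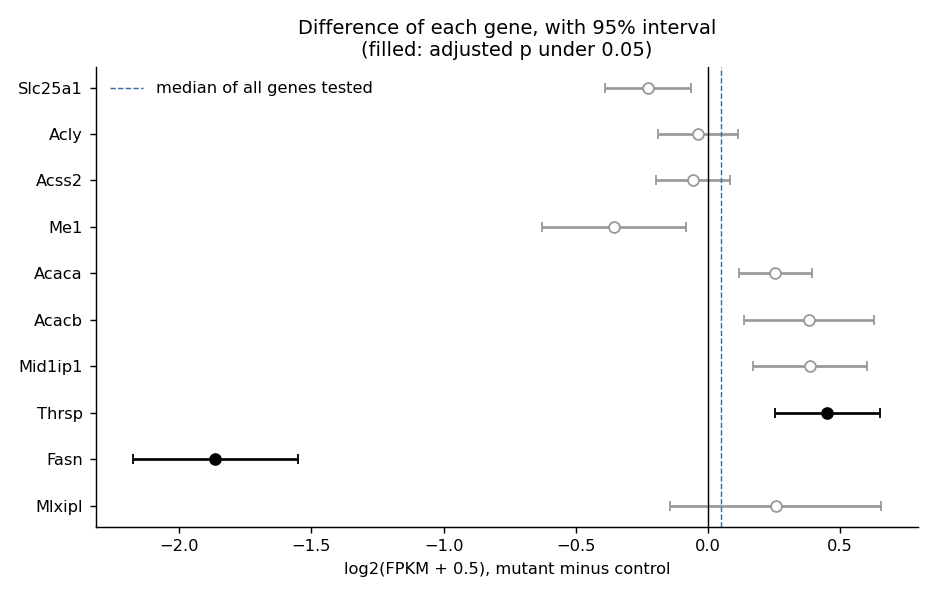
Difference between mutants (n = 3) and controls (n = 4) on the log2(FPKM + 0.5) scale for each gene, ordered by role from citrate export to the transcription factor, with 95% intervals. Filled points passed at an adjusted p under 0.05, the dashed line is the median of all genes (0.05), and Fasn at -1.86 lies outside the range of the other 9 genes, -0.36 to 0.45.

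The fall of Fasn passed in all 7 fits that left out 1 sample, with differences from -2.02 to -1.77, and in all 9 other settings, with differences from -1.99 to -1.81. Thrsp passed in 7 of these 16 alternatives, Mid1ip1 in 3, Me1 in 2, and Acaca and Slc25a1 in 1 each. With array weights, which let samples that agree less with their group count less, Acaca, Slc25a1, Thrsp and Mid1ip1 passed beside Fasn, and Acacb, Acly, Acss2 and Mlxipl passed in none of the 16. The median of the 9 genes without Fasn was 0.25, and that of all 13866 genes was 0.05, or between -0.01 and 0.01 after the libraries were rescaled.

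**Figure D3:**
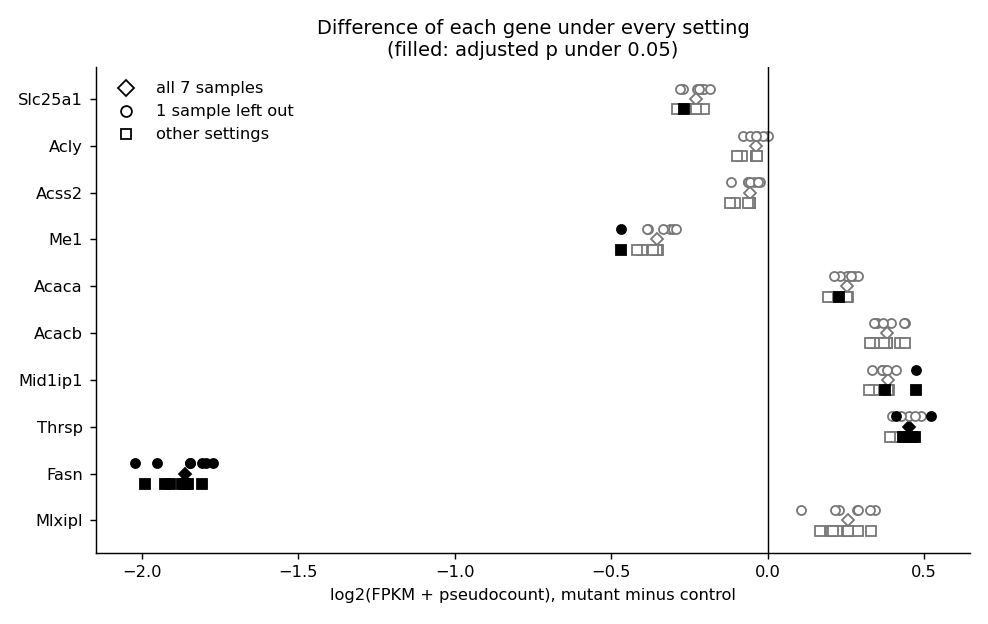
Difference of each gene with all 7 samples (diamonds), with 1 sample left out (circles, 7 fits) and under 9 other settings (squares). Filled symbols passed at an adjusted p under 0.05, as all do for Fasn, some do for Thrsp, Mid1ip1 and Me1, and none do for Acacb, Acly, Acss2 and Mlxipl.

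By level per length, Fasn took rank 1 of the 10 genes in controls and rank 6 in mutants. In controls the order of mean FPKM was Fasn (205), Slc25a1 (175), Mid1ip1 (128), Acly (127), Acss2 (117), Acaca (70.5), Me1 (56.9), Thrsp (18.1), Acacb (3.03) and Mlxipl (1.34). Neighbours whose sample ranges overlapped were Fasn with Slc25a1, Mid1ip1 with Acly, and Acly with Acss2. In mutants the order was Mid1ip1 (167), Slc25a1 (149), Acly (123), Acss2 (113), Acaca (84.3), Fasn (56.3), Me1 (44.0), Thrsp (24.98), Acacb (4.09) and Mlxipl (1.66), and only Acly and Acss2 overlapped among neighbours. These ranks depend on the length by which the reads are divided. The table gives Fasn 3773 bases and Acaca 3406 bases, whereas their longest protein-coding transcripts in GENCODE M21 have 10050 and 9513 bases. With the longest coding transcript of each gene, Acly led in controls (105 FPKM), and Fasn took rank 5 in controls (76.8 FPKM) and rank 8 in mutants (21.1 FPKM). A longer length also acts like a larger pseudocount on the differences of low genes. With pseudocounts of 0.1 and 1, the difference was 0.42 and 0.34 for Acacb and 0.33 and 0.20 for Mlxipl.

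Fasn was next read against the OL markers of the same sample, because the summed OL markers were lower in the mutants. The mean log2 level of the 10 markers of myelinating OLs, relative to the control mean, was -0.03, 0.06, -0.02 and -0.01 in controls 1 to 4 and -0.46, -0.07 and -0.38 in mutants 1 to 3. Mutants 1 and 3 were the lowest by these markers, and mutant 2 was nearer to the controls. Relative to these markers Fasn was -3.24 to -3.75 in controls and -4.51 to -5.34 in mutants, a difference of -1.56. With 4 samples against 3, the exact two-sided permutation test gives 0.0571 at best, which it gave here. Adjusted over the 10 genes, the p of this permutation test was 0.0952. Every mutant lay below every control for Fasn by this measure, as for 0.389% of all genes tested. Subtracting the lower marker level raises every gene in the mutants, so this share cannot be set against the 8.26% of the unadjusted values. The part that OL content plays in the fall of Fasn was not tested.

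**Figure D4:**
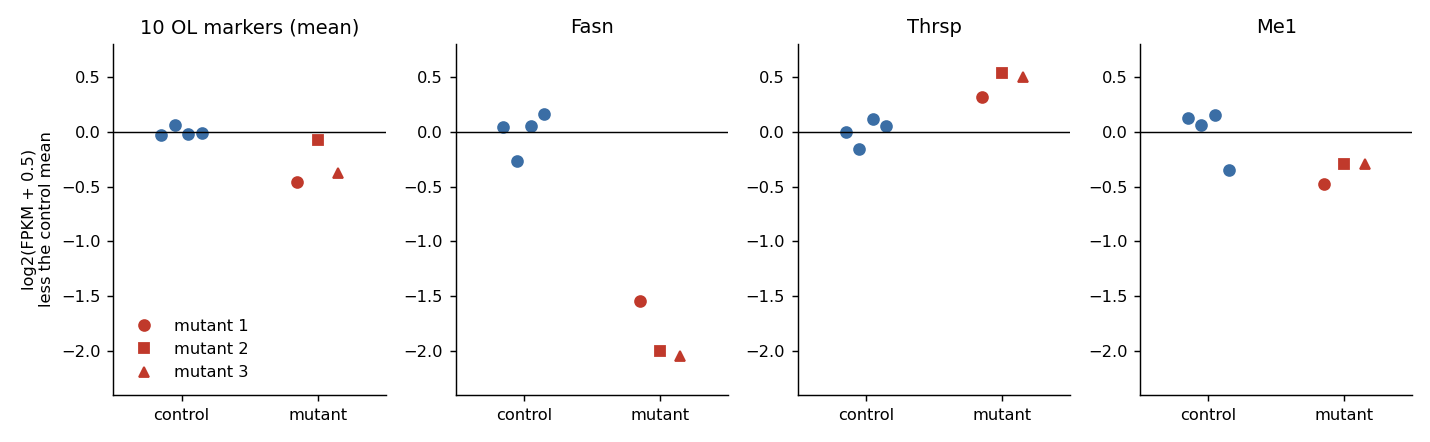
Level in each sample relative to the control mean on the log2(FPKM + 0.5) scale for the mean of 10 markers of myelinating OLs, for Fasn, for Thrsp and for Me1, with a symbol for each mutant. The mutants span -0.46 to -0.07 for the OL markers, and all of them lie below the controls for Fasn and above them for Thrsp.

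Measured against the same markers, 5 genes were higher in every mutant than in every control, Thrsp (difference 0.76), Mid1ip1 (0.69), Acacb (0.68), Acaca (0.56) and Acss2 (0.25), where 33.4% of all genes tested were so. The groups overlapped for Mlxipl (0.56), Acly (0.27), Slc25a1 (0.08) and Me1 (-0.05). This measure adds the marker shift of -0.30, with its sign turned, to every gene, so that only the order of the samples within a gene is new. The shift stands beside the unadjusted differences of -0.23 for Slc25a1 and -0.36 for Me1.

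The other genes of the pathway were read in 8 lists with 67 genes, of which 63 were tested. Of these, 2 passed as higher (Aldh1l1 and Scd1) and none as lower in limma, where 2.62% of all genes passed in either direction. An unadjusted p under 0.05 was found for 15 of the 63, against 3387 of the 13866 genes tested. The median difference over the 63 genes was 0.06, next to 0.05 for all genes. Every mutant lay above every control in 12 of the 63 genes and below in 4, against shares of 12.9% and 8.26% over all genes tested. Both calls were lost with no filter on low values, without a variance trend, and when control 1, 2 or 3 or mutant 3 was left out.

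The list that holds Scd1, made up of desaturases and elongases, had the highest median, 0.18 over 8 tested genes. Scd1, a desaturase that makes monounsaturated fatty acids, had 205.6, 212.2, 193.3 and 184.2 FPKM in controls and 236.3, 340 and 313.2 FPKM in mutants. It rose by 0.56 (SE 0.119, adjusted p = 0.0480, limma), and mutant 1 was the mutant nearest to the controls. Its call was lost under both other scalings of the libraries (adjusted p = 0.0740 and 0.0824) and without control 4 or mutant 2 (0.0953 and 0.0553). Scd2, the more abundant desaturase, was 1110 to 1197 FPKM in controls and 1084 to 1356 FPKM in mutants, a difference of 0.08. The elongase Elovl6, which extends palmitate to stearate, had 0.30 (adjusted p = 0.123, limma). Its groups were barely apart, with a highest control of 186 FPKM and a lowest mutant of 186.4 FPKM. Elovl1, an elongase of very long chains, had the lowest value of the list at -0.22 (adjusted p = 0.117, limma), also with the groups apart.

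NADPH can also come from the pentose phosphate pathway, isocitrate dehydrogenase and folate metabolism. Of 6 such genes, Aldh1l1 passed, at 29.4 to 33.2 FPKM in controls and 41.2 to 50.4 FPKM in mutants, and rose by 0.55 (SE 0.0834, adjusted p = 0.0214, limma). Aldh1l1, a folate enzyme, is also widely used as a marker of astrocytes, whose marker sum was higher in mutants as given above. G6pdx, the entry enzyme of the pentose phosphate pathway, had 40.8 to 42.4 FPKM in controls and 41.2 to 43.2 FPKM in mutants, with a difference of 0.03 (95% interval -0.09 to 0.15). Idh1 was the most abundant of the 6 and had the lowest difference, -0.20 (adjusted p = 0.222).

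Among 12 transcription factors and processing proteins of the SREBP and LXR pathways none passed in limma. Of the 12, 4 had an unadjusted p under 0.05, against 3387 of all 13866 genes tested. Srebf1, whose product SREBP-1c activates lipogenic genes, had the highest difference. It was at 25.36, 22.88, 26.8 and 35.72 FPKM in controls and 41.93, 37.77 and 36.79 FPKM in mutants, a difference of 0.50 (SE 0.135, adjusted p = 0.0815, limma). Control 4 was once more the control nearest to the mutants, and with the replicate number as a block, which sets it aside, the difference was 0.63 (adjusted p = 0.0235). Insig2, which holds SREBPs back in the endoplasmic reticulum, had 0.40 (adjusted p = 0.0627), and 0.40 with the block (adjusted p = 0.0372). Srebf2, the factor of cholesterol synthesis, was at -0.06 (95% interval -0.24 to 0.13), and Usf1, a partner factor on lipogenic promoters, had the lowest difference, -0.20 (adjusted p = 0.138).

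None of the other 5 lists held a gene that passed in limma. Between them 5 of 37 tested genes had an unadjusted p under 0.05, against 3387 of all 13866 genes tested. In the list of malic enzymes and carriers, the plasma membrane citrate importer Slc13a5 was highest at 0.59 (adjusted p = 0.0613, or 0.0369 with the replicate number as a block), and the mitochondrial malic enzyme Me3 lowest at -0.14. The list of AMP-activated protein kinase, which inhibits both carboxylases, also held genes of the LKB1 complex upstream of it. The regulatory subunit Prkag2 was highest at 0.59 (adjusted p = 0.0694, or 0.0365 with the block, limma). Prkag2 had 88.58 and 83.92 FPKM in mutants 1 and 3 and 54.56 FPKM in mutant 2. Strada, of the LKB1 complex, was lowest at -0.06, and Prkab2 was the lowest of the listed subunits of the kinase itself at -0.02. In the supply of mitochondrial acetyl-CoA and citrate, the values ran from -0.16 for the pyruvate carrier subunit Mpc2 to 0.25 for the pyruvate dehydrogenase subunit Pdha1. Mitochondrial fatty acid synthesis, which runs separately from Fasn on its own enzymes, ran from -0.07 (Acsf3) to 0.14 (Cbr4). The genes of cofactor attachment and malonyl-CoA handling ran from -0.00 (Mlycd) to 0.16 (Btd), and Aasdhppt, which loads the acyl carrier domain of the synthase, was at 0.00 (95% interval -0.19 to 0.20).

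**Figure D5:**
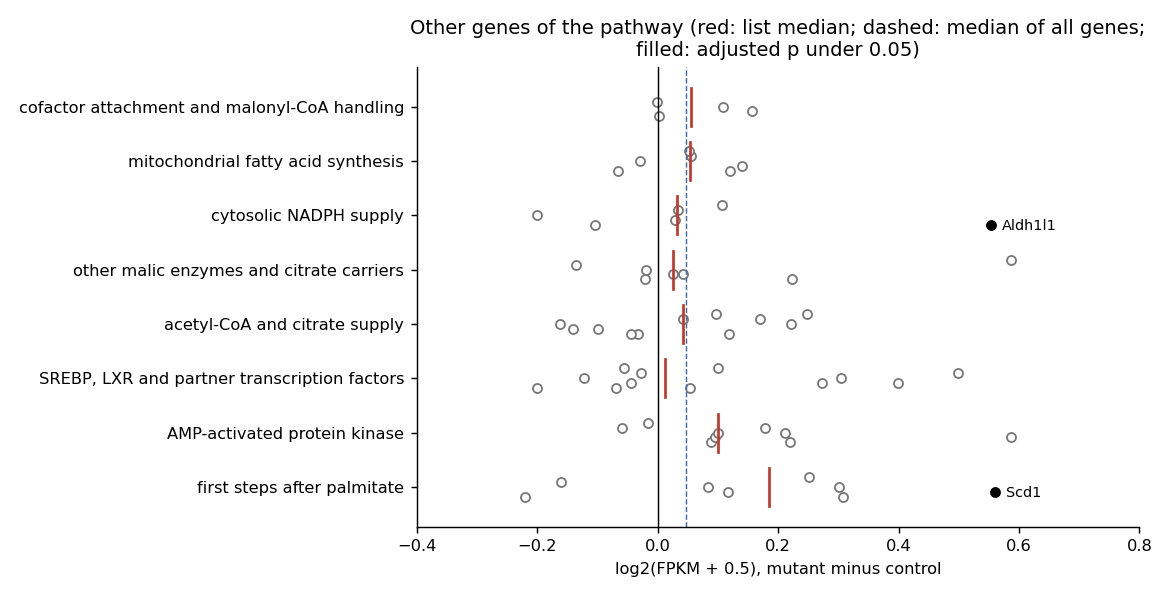
Difference between mutants and controls on the log2(FPKM + 0.5) scale for 63 tested genes of 8 pathway lists, with the list median as a red bar and the median of all genes (0.05) as a dashed line. Filled points, Aldh1l1 and Scd1, passed at an adjusted p under 0.05, and the list medians lie between 0.01 and 0.18.

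The defining markers of adipocytes, another lipogenic cell type, were at or near 0. Lep and Ucp1 were at 0 FPKM in all 7 samples, and the highest values of Adipoq and Plin1 were 0.214 and 0.0741 FPKM. Nearly all of the adipocyte marker sum of 4.93 to 7.34 FPKM came from Lipe, at 4.56 to 6.63 FPKM.

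The genes with the profile nearest to that of Fasn over the 7 samples were Casr, Grm4, Sp7, Il23a and Clgn, out of 12751 genes with a control mean of at least 1 FPKM. Their root mean square distance from Fasn, on log2 values less the control mean, was 0.490, 0.565, 0.584, 0.607 and 0.640. No member of the pathway lists was among them, which follows from the lowest difference in those lists, -0.22. The lipogenesis genes themselves were left out of this search. Casr, the calcium-sensing receptor, was nearest, at 14.3 to 20.2 FPKM in controls and 5.93 to 8.31 FPKM in mutants. All 5 had smaller differences than Fasn, between -1.17 and -0.99, and were chosen for the likeness of these same values.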

How the data were processed

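mRNA of P14 optic nerves was measured in 4 control and 3 mutant mice, grouped by their labels. The authors aligned trimmed reads with STAR (2.5.1b) to GRCm38 and quantified genes with RSEM (1.2.22). The authors deposited 1 table with, for each gene and sample, a normalized count (a signal of the estimated count over a size factor) and an FPKM value. The GC fraction deposited for each gene, and the columns of the authors' own edgeR comparison (a log2 ratio, p-value and FDR), were not used.

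FPKM values were tested with limma-trend (limma 3.58.1, R 4.3.3) on log2(FPKM + 0.5), with genotype as the only term, for genes with at least 0.5 FPKM in at least 3 samples, and Benjamini-Hochberg adjustment. Fold changes on this scale understate those of low genes. No raw counts were used, since only 74.5% to 80.6% of normalized counts worth under 10 reads were within 0.05 of a whole multiple of 1 read. The most frequent low value, taken as 1 read, gave the depths. Depth limits the precision of Mlxipl most. Samples of a group differed by more than sampling noise (median chi-square per gene 2.08 to 5.74).

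The genes, lists and markers were chosen with earlier results of these data known. Named are all 10 genes, list genes that passed or set a list's range, and the 5 genes nearest to Fasn. G6pdx, Srebf2, Scd2, Elovl6, Insig2 and Aasdhppt were named besides, for their roles, after their values were seen. Same-numbered samples deviated from their group means together (correlations of 0.168 to 0.409 over 3 pairs, against -0.353 to 0.205 for different numbers), so the number was used as a block in an alternative fit. The labels do not say what a number stands for, and samples 1 and 2 of both genotypes lacked Eif2s3y whereas sample 3 of both expressed it.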

Additional observations from a re-analysis of the deposited data

Results flagged for a closer look

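Of 73 pathway genes examined, 2 had a control that stood far from the other 3, about as many as chance gives when 1 in 20 groups is marked. Mpc1, a subunit of the pyruvate carrier, was at 219.8 FPKM in control 2 against 203.8 to 204.8 FPKM in the other controls. Mbtps2, a protease that releases SREBPs, was at 12.98 FPKM in control 1 against 11.49 to 11.64 FPKM in the others. Neither gene passed the test between genotypes, and none of the 10 lipogenesis genes was marked.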

How the results depend on the processing

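Fasn kept its direction and its call in all 16 alternatives. The 2 calls among the 10 genes became 1 (Fasn) with no filter, under median-of-ratios and upper-quartile scaling and without a variance trend, 5 with array weights, and 1 to 3 when 1 sample was left out. The 2 calls in the pathway lists became 0 with no filter or no variance trend, 1 under either scaling, 14 with array weights and 0 to 7 when 1 sample was left out. Over all genes, the 363 calls became 95 with no filter, 57 without a trend, 1525 with array weights and 6 to 907 when 1 sample was left out, the lowest without control 3 or mutant 3 and the highest without mutant 2. Of the 363 calls 175 were higher in mutants, against 135 of 356 under median-of-ratios and 139 of 434 under upper-quartile scaling, 890 of 1159 with the replicate block and 908 of 1525 with array weights. With the replicate number as a block, 4 of the 10 genes, 6 list genes and 1159 of all genes passed. The genes added were Me1 (-0.47) and Mid1ip1 (0.47), as without control 4, and the block changed no other call among the 10. With 1 sample left out, Acly ran from -0.0798 to 0.000964, reversed without control 1. Relative to the OL markers, Me1 ran from -0.16 to 0.0351 with 1 sample left out. It reversed to 0.0176 with 5 markers, 0.000785 without control 1, 0.00583 without control 3 and 0.0351 without mutant 2. With the longest coding transcript as length, chosen after seeing the data, the rank of Fasn moved from 1 to 5 in controls and from 6 to 8 in mutants. The cause of the changes with the settings of the fit was not tested.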
